A study of Pyrus pyrifolia with 6 samples.

Results

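In the fruit skin of sand pear (Pyrus pyrifolia), 94 of the 42966 genes of the deposited table had reads in all 3 green libraries and none in the 3 russet libraries. They were selected on these values: an FPKM above 0 in each green library, averaging 0.5 FPKM or more, and an FPKM of 0 in each russet library. FPKM counts the fragments on a gene scaled by the length of the gene and by the depth of the library. The expression part of this rule was met by 114 genes. Of these, 20 were left out, namely 15 loci added by transcript assembly, 1 annotated gene on 3 scaffolds set aside by the rule, and 4 genes set aside by their id. The same rule turned round gave 84 genes with reads in russet skin only. Because the values in green and russet skin chose the 94 genes, those values are a description, from which no test is drawn.

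The green libraries came from 'Suisho', a bud mutant line with green skin, and the russet libraries from its parent 'Niitaka'. Fruits were sampled 80 days after anthesis (DAA) from healthy plants under open growth conditions, and each sample combined the skin of 10 fruits. Each line had 3 libraries (green skin, B1, B2 and B3; russet skin, A1, A2 and A3), and green skin stands here for a single mutant line. The sources used here do not say whether the samples of a line came from separate trees, so p-values measure only the spread between these samples.

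A bud mutant arises as a changed shoot on a tree and is kept by grafting, so that parent and mutant are closely related clones. Green pear skin keeps a living epidermis under a cuticle of cutin and wax, whereas in russet skin the epidermis is replaced by a periderm, whose cork cells deposit suberin in their walls and then die. In bulk skin, fewer cells of a type and less RNA per cell cannot be told apart.

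The depth sets what an FPKM of 0 means. The green libraries rested on 31381552 to 41686837 reads and the russet libraries on 33926183 to 42729578 reads, and 1 read per 1000 bp of gene was worth 0.024 to 0.0319 FPKM in green and 0.0234 to 0.0295 FPKM in russet libraries. With a floor of 3 reads over the russet libraries, a gene of 1000 bp without a read could still have had a level of up to 0.0253 FPKM. Intervals and floors of this kind cover counting error only. Reads of sand pear were aligned to the genome of another species, Chinese white pear, and differences in sequence between the lines were not analysed here.

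Most of the 94 genes were weakly expressed in green skin. Their mean levels had a median of 1.35 FPKM with quartiles of 0.754 and 3.56 FPKM, and lay between 0.539 and 47.7 FPKM. A mean of at least 10 FPKM was reached by 4 genes, at least 5 FPKM by 17 genes and at least 1 FPKM by 56 genes, whereas 38 genes stayed under 1 FPKM. Together they took 36152 reads, or 0.0333% of the reads of the green libraries, and the 4 genes with the highest means held 36.6% of these. The 84 genes with reads in russet skin only had a median of 1.38 FPKM in russet skin, up to 37.96 FPKM, with 16 genes at 5 FPKM or more and 50 genes at 1 FPKM or more.

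The highest level belonged to gene 103931158, with 56.3, 44.2 and 42.5 FPKM in B1, B2 and B3 from 2884 reads, on scaffold NW_008988536.1 from 314783 to 315456 on the minus strand. All 3 green libraries were thus high and close to each other. Its fold change against russet skin was at least 1051, set against the floor of 3 reads over the russet libraries. Gene 103957056 (NW_008988186.1, 281078 to 286965, plus strand) had 24.3, 21.9 and 31.7 FPKM in B1, B2 and B3 and the most reads of the set, 7411, of which none appeared in russet skin, i.e., at least 2700-fold higher in green. These 2 genes were the only ones whose bound reached 1000-fold. Neither had a name or a functional term in the tables used here.

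Gene 103965965 (NW_008988343.1, 37241 to 40729, minus strand) had 13.4, 14.4 and 11.0 FPKM in B1, B2 and B3, at least 422-fold above russet skin. Gene 103938356 (NW_008988968.1, 106002 to 108119, plus strand) had 9.31, 14.6 and 13.9 FPKM in B1, B2 and B3, at least 649.8-fold above russet skin. Both rested on over 1000 green reads, 1158 for the first and 1784 for the second.

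Among the next genes in order, levels were less even between libraries. Gene 103942528 had 6.39, 16.8 and 5.92 FPKM in B1, B2 and B3, so that B2 stood apart from the other libraries. Gene 108867328 had 5.89, 8.13 and 14.8 FPKM, with B3 the highest. By contrast, gene 103931174 had 8.27, 8.16 and 7.82 FPKM, gene 103932894 had 8.07, 9.60 and 10.3 FPKM and gene 103935802 had 7.81, 6.99 and 7.76 FPKM in B1, B2 and B3. Gene 108867914, a model of only 100 bp, had 10.1, 5.09 and 6.69 FPKM from 81 reads. The genes ranked 11 to 15 by mean were 103957296, 103957663, 103931049, 103938689 and 103959946, with means of 6.95, 6.46, 6.28, 5.74 and 5.72 FPKM. None of the 15 highest genes except 108867328 carried a functional term.

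**Figure D1:**
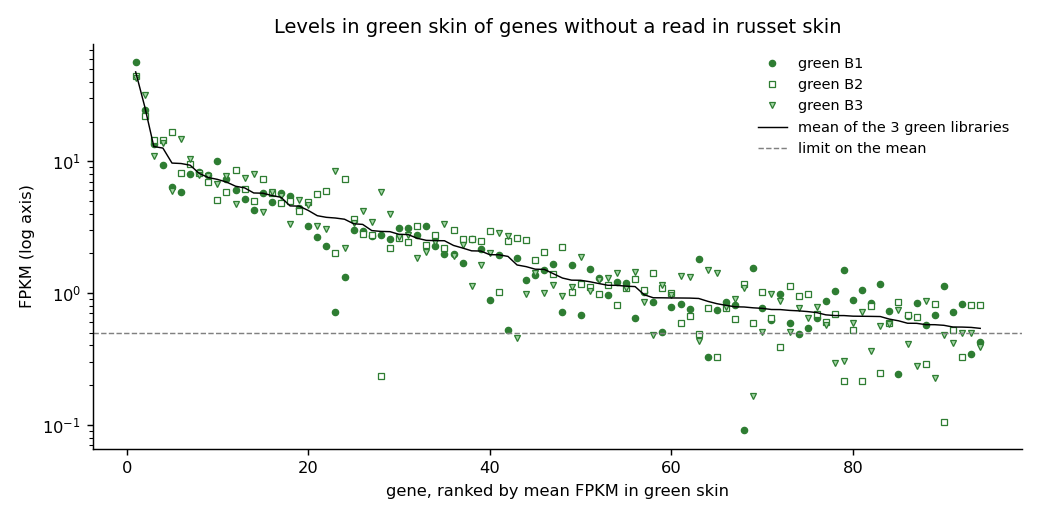
FPKM in each green library (B1 filled circles, B2 open squares, B3 triangles; log axis) for the 94 genes ranked by their mean, which the line shows; the dashed line is the limit of 0.5 FPKM on the mean. A steep drop over the 4 highest genes, all at 10 FPKM or more, is followed by a long tail, and the libraries scatter more widely toward the low end.

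The russet floor gave a lower bound of the fold change for every gene. The bounds had a median of 50.3 and reached 10-fold for 87 genes and 100-fold for 31 genes. Bounds under 10-fold were found for 7 genes, which were also the 7 with fewer than 30 reads over the green libraries. The lowest was 1.46 for gene 103940062, whose model is 54 bp long and held 4 reads, and the second gene with fewer than 10 reads was 108865866, with 6 reads on 73 bp. For such genes the FPKM limit was met by few reads on a short model, and their absence from russet skin was not detectable beyond a small fold at this depth. In all, 7 genes had a model under 150 bp.

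The limits of the rule cut through a continuous range. Just inside the limit on the mean were genes 103955135, 103931665 and 103933719 with 0.552, 0.548 and 0.539 FPKM, and just outside it genes 103939188, 108865552 and 103928469 with 0.483, 0.475 and 0.452 FPKM. Altogether 164 genes had reads in every green library, none in russet skin and a mean under 0.5 FPKM. A further 35 genes met the limit on the mean but had 1 read in russet skin, and the 3 highest of them were well expressed in green skin. Gene 108865734 had 19.9, 18.4 and 11.7 FPKM in B1, B2 and B3 from 1629 reads, against 1 read in A2. Gene 103942210 had a green mean of 7.72 FPKM from 1408 reads, against 1 read in A2, and gene 103944651 a green mean of 4.69 FPKM from 659 reads, against 1 read in A1. With at most 3 russet reads allowed, 171 genes would have been taken.

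Within green skin, the 94 genes varied more between libraries than other genes. Their coefficient of variation (CV) over B1, B2 and B3 had a median of 30.6%, whereas the 25547 other genes that reached 0.5 FPKM in green skin and had reads in all its libraries had a median of 15.9%. The sets differed in level, with a median of 138 reads per gene among the 94 and 1517 reads among the others, and counting error alone would give the 94 genes a median CV of 14.7%. The part of read number in the difference was not tested. The highest green library was at least 2 times the lowest for 40 genes and at least 5 times for 9 genes, and 24 genes had a CV of at least 50%.

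No single green library carried the set. The highest value fell in B1 for 31 genes, in B2 for 34 and in B3 for 29, and the summed levels were 299, 320 and 319 FPKM. The steadiest gene was 103931174, given above, with a CV of 2.88% over 1665 reads. The least steady was 103967776 (NW_008988387.1, 108394 to 110208), with 0.718, 2.00 and 8.40 FPKM in B1, B2 and B3, a CV of 111% over 499 reads. Gene 108867882 had 2.78, 0.234 and 5.79 FPKM, but its B2 value was a single read on a model of 121 bp.

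**Figure D2:**
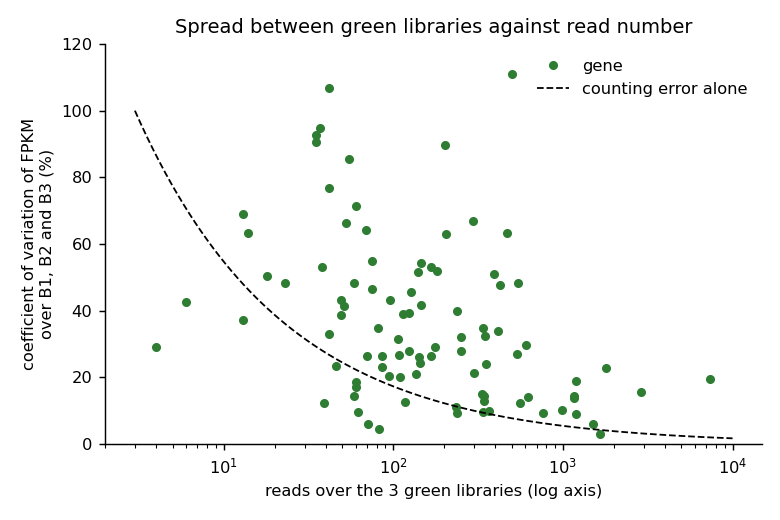
CV of FPKM over B1, B2 and B3 (in %) against the reads over the 3 green libraries (log axis), 1 point per gene; the dashed curve is the CV that counting error alone would give. Most genes lie above the curve, including gene 103967776 at 111% with 499 reads, and several genes with over 100 reads lie close to it.

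Functional information was thin. Only 18 of the 94 genes had a name or a term in the tables used here: 1 had a name, 5 a Gene Ontology (GO) term and 12 a KEGG pathway. These tables come from the supplement of the study and list terms only for genes that the study called different on the same libraries, so they are not independent evidence, and they are shortened, so the absence of a term for the other 76 genes says nothing of their function. Apart from ADP binding, a term that names no role, the terms fell into 3 kinds of role: handling of RNA, protein and DNA, lipid and acyl metabolism, and sugar or amino acid metabolism.

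Translation was represented by 4 genes. Genes 108867328 and 108867329, both under aminoacyl-tRNA biosynthesis, the charging of transfer RNAs with amino acids, lie on scaffold NW_008988094.1 at 891744 to 892836 (minus strand) and 1100710 to 1101776 (plus strand). Gene 108867329 had 1.33, 7.36 and 2.20 FPKM in B1, B2 and B3, so that its highest library was B2 and that of 108867328 was B3. Their surroundings are alike on opposite strands: genes lie 405 and 8811 bp from 108867328 and 394 and 8923 bp from 108867329. The sequences of 108867328 and 108867329 were not compared, and if they are copies that share reads, their separate levels are uncertain. Gene 103929229, under ribosome, had 2.96, 2.79 and 4.20 FPKM from 86 reads. Gene 103957025 is named ABC transporter E family member 2-like; proteins of the E family lack membrane-spanning parts and split ribosomes after translation ends. It had 1.31, 0.985 and 1.25 FPKM in B1, B2 and B3, a low and even level from 59 reads. In the order named, the 4 models are only 571, 543, 284 and 459 bp long, and whether they are whole genes was not tested.

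RNA processing and turnover were represented by 3 genes. Gene 103959939, under RNA transport and ribosome biogenesis, had 2.56, 2.21 and 4.00 FPKM in B1, B2 and B3 and lies over gene 103959941 on the other strand. Gene 103934977, under RNA degradation, RNA transport and mRNA surveillance, had 1.49, 2.05 and 0.997 FPKM. Gene 103942573, under RNA degradation, had 1.205, 0.814 and 1.41 FPKM. All 3 thus stayed under 5 FPKM in every library, with B3 the highest library of the first and the last and the lowest of 103934977.

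The remaining genes of this role concerned DNA and protein turnover. Gene 103942790, under DNA replication, mismatch repair, nucleotide excision repair and homologous recombination, had 2.75, 3.23 and 1.84 FPKM in B1, B2 and B3, and its model begins at base 1 of scaffold NW_008989764.1, so it may be cut by the scaffold end. Gene 103957212, under ubiquitin mediated proteolysis and protein processing in the endoplasmic reticulum, had 0.815, 0.640 and 0.903 FPKM. Outside these roles, gene 108865334, with only the GO term ADP binding, had 0.836, 0.799 and 0.360 FPKM.

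Of the 5 genes of lipid and acyl metabolism, none exceeded 3 FPKM in a library. Gene 103955007, with the GO term for hydrolases acting on ester bonds, had 1.84, 2.60 and 0.453 FPKM in B1, B2 and B3, and gene 103934421, with terms for lipid biosynthesis and fatty acid metabolism, had 0.967, 1.16 and 1.31 FPKM. Genes 103928860 and 103955135, both with the GO term for transferases of acyl groups, had means of 0.738 and 0.552 FPKM, and gene 103941163, under glycerophospholipid metabolism, had 0.765 FPKM. The level of the ester hydrolase gene differed 5.74-fold between its highest and lowest library, whereas that of 103934421 differed 1.35-fold.

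The genes of small-molecule metabolism were also low. Gene 103945022, under the synthesis of valine, leucine and isoleucine and of pantothenate and coenzyme A, had 1.36, 1.77 and 1.42 FPKM in B1, B2 and B3. Gene 103941616, under phenylpropanoid biosynthesis and starch and sucrose metabolism, had a mean of 0.634 FPKM, and gene 103935817, under galactose and starch and sucrose metabolism, 0.575 FPKM. No gene with a name or a term thus had a mean above 10 FPKM.

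The 94 gene models were shorter than those of other expressed genes. Their median length was 800.5 bp and 61.7% were under 1000 bp, whereas the 24954 other annotated genes expressed to the same limits in green skin had a median of 1627 bp and 20.2% under 1000 bp. The genes with reads in russet skin only were alike in this, with 908 bp and 58.3%. The part of gene length in the choice of both sets was not tested. Another gene overlapped 18 of the 94 models. The sources used here do not say whether the counting used the strand, so reads of overlapping genes on opposite strands may not be told apart. Some overlaps are on the same strand, where the strand cannot separate reads. Gene 103932894 lies within 103932893, which had 3978 green and 209 russet reads. Likewise, 103928860 lies within 103928844, which had 36 green and 2 russet reads. Genes 103967504 and 103967512 (NW_008988381.1, 176589 to 183718 and 321551 to 328680) span an equal 7130 bp each on opposite strands. Their sequences were not compared, and if they are copies that share reads, their means of 0.569 and 0.830 FPKM are uncertain.

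The 94 genes lay on 77 of the 1688 scaffolds, and 29 of them shared a scaffold with another. Directly adjacent were 7 pairs, 5 of them on 1 strand. Genes 108868421 and 103963843 were 12 bp apart on scaffold NW_008988293.1, with green means of 3.36 and 2.09 FPKM, and genes 103937294 and 103937293 were 49 bp apart on NW_008988881.1, with 2.79 and 1.13 FPKM. Whether such close pairs are parts of a single transcript was not tested. Wider gaps separated 103952651 and 103952650 (7841 bp; 2.98 and 5.33 FPKM), 103965965 and 103965966 (14214 bp; 12.9 and 2.78 FPKM), and 103931157 and 103931158 (16929 bp; 5.49 and 47.7 FPKM). The means within a pair differed 1.52- to 8.68-fold, so adjacent genes were not at equal levels.

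The most genes on a single scaffold were 5, on NW_008988236.1 within 79.3 kb. In order they were 108865334, 103960671, 103960670, 103960725 and 103960668, with green means of 0.665, 2.30, 0.683, 1.40 and 0.920 FPKM. They include the remaining 2 adjacent pairs, 103960671 with 103960670 (3781 bp apart) and 103960725 with 103960668 (579 bp apart). The model of 108865334 spans 36198 bp and covers or touches 5 other genes, among them 103960671 and 103960670. Gene 103960672, which overlaps 108865334 on the same strand, had 12.1, 12.2 and 13.4 FPKM in B1, B2 and B3, against 12.8, 13.7 and 13.8 FPKM in A1, A2 and A3, and gave no call (log2 fold change -0.10, SE 0.11, adjusted p = 0.623, limma). Russet reads thus fell on a gene that overlaps 108865334, but that gene ends before 103960671 and 103960670.

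Genes that the rule did not choose could be tested. Limma was run for green against russet skin, on log2(FPKM + 0.1), over the 30161 genes that averaged 0.1 FPKM or more, and a gene was called at an adjusted p under 0.05. Of these, 7.29% were called higher and 8.05% lower in green skin. The 94 genes themselves were all called higher, beside that 7.29%, which follows from how they were chosen. Of the other 60 tested genes on NW_008988236.1, 14 were called higher and 4 lower in green skin, i.e., 23.3% against the 7.29% of all genes. One of the 14 was 103960664, named ABC transporter G family member 32-like, a type of exporter known from Arabidopsis to be needed for the cutin layer. It had 20.8, 22.5 and 21.4 FPKM in green B1, B2 and B3, against 11.6, 7.81 and 11.8 FPKM in russet A1, A2 and A3 (log2 fold change 1.07, SE 0.18, adjusted p = 0.00709, limma). It was picked out after its values were seen.

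On scaffold NW_008988538.1, 99.5 kb separate genes 103931174 and 103931186 of the set. Here 8 of the 14 other tested genes, or 57.1%, were called higher in green skin and 0 lower. The next tested gene after 103931174 was 103931173, with 2.54, 1.95 and 2.70 FPKM in B1, B2 and B3, against a single read in A1 and none in A2 and A3 (log2 fold change 4.56, SE 0.29, adjusted p = 9.45e-05, limma). Gene 103931170 had a mean of 14.4 FPKM in green and 1.16 FPKM in russet skin. Between them, gene 103931185 had 4.27, 3.42 and 1.14 FPKM in green and 5.05, 2.63 and 1.32 FPKM in russet skin, with no call (log2 fold change -0.02, adjusted p = 0.987, limma). The genes named on this scaffold were picked out after their values were seen, and these 2 scaffolds had the highest shares called higher of the 12 that hold several genes of the set. The others had 0 to 14.5% called higher. On NW_008988094.1, 2 of 68 other tested genes were called higher and 9 lower, on NW_008988343.1 2 of 38 were called higher and 6 lower, and on 3 scaffolds no other gene was called in either direction.

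**Figure D3:**
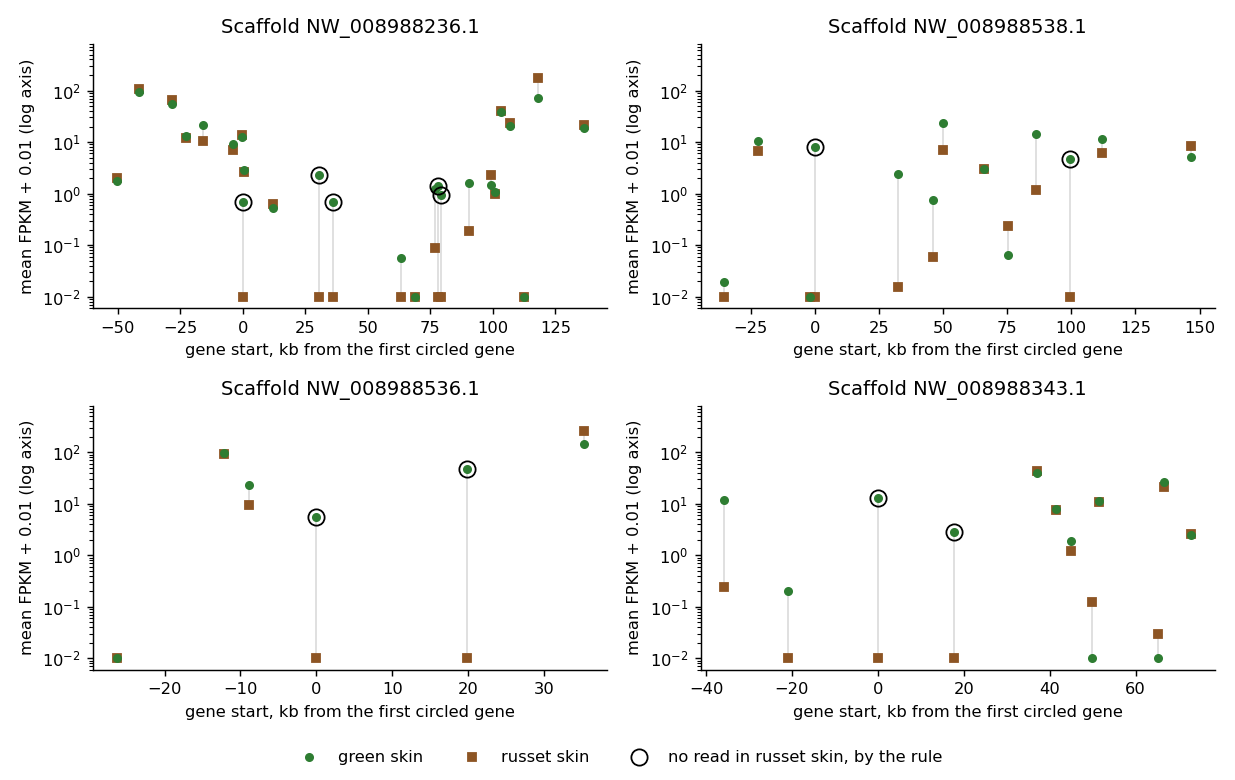
Mean FPKM + 0.01 (log axis) in green (circles) and russet (squares) skin of the genes on 4 scaffolds, placed by the distance of their start in kb from the first gene of the set; open rings mark the genes of the set. Ringed genes sit at 0 in russet skin, while genes between and beside them are mostly found in both lines, as 103960672 on NW_008988236.1 at 12.5 and 13.4 FPKM.

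The genes nearest to the 94 were called higher in green skin more often than genes at large. Taking on each side of each gene the nearest tested gene outside the set, within 50 kb from start to start, gave 149 genes beside 90 of the 94. Of these, 32 or 21.5% were called higher in green skin, against 7.29% of all tested genes, whereas 11 or 7.38% were called lower, against 8.05%. The remaining 106 gave no call. The median log2 fold change of the 149 genes was 0.10, against -0.003 over all tested genes. At least 1 neighbour was called higher for 35 of the 94 genes. Some of the 94 share a neighbour, and the matching share for other genes was not computed. Whichever library was left out, 25 of the 32 calls remained.

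The share called higher was similar without overlaps and at shorter distance. When the 9 neighbours that overlap a gene of the set were dropped, 29 of 140 or 20.7% were called higher and 11 or 7.86% lower. Within 20 kb, 26 of 121 or 21.5% were called higher and 7 or 5.79% lower. Read-through from 1 gene into the next was not tested. In russet skin the 149 neighbours had a median of 3.33 FPKM, 47 of them averaged 10 FPKM or more, and 4 had no russet read. Of those 4, 2 were loci added by transcript assembly that met the expression part of the rule, Novel00303 beside 103957296 and Novel00726 beside 103940062, with green means of 3.17 and 1.51 FPKM. None of the 94 genes had one of the 84 russet-only genes, which average 0.5 FPKM or more in russet skin, within 50 kb. The 84 are few among 42966 genes, and the count for other sets of 94 genes was not computed, so no separation is shown. Below the limit of 0.5 FPKM, 103964774 beside 103964779 had no green read, against 0.387, 0.153 and 0.862 FPKM in russet A1, A2 and A3 from 17 reads, and was called lower (adjusted p = 0.0259, limma).

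The neighbour with the largest change was 103955005, a GDSL esterase/lipase At2g04570, on NW_008988159.1 from 350585 to 354120. GDSL esterases/lipases are a large family of lipid-acting enzymes that includes the enzymes that join cutin monomers into the polymer. It had 44.6, 54.0 and 30.4 FPKM in green B1, B2 and B3, against 0.153, 0.122 and 0.461 FPKM in russet A1, A2 and A3 (log2 fold change 7.05, SE 0.39, adjusted p = 6.40e-05, limma), so that the groups lay far apart. It lies 18053 bp from 103955007, the ester hydrolase gene of the set, on the same strand. A further GDSL gene on that side, 103955006, had a mean of 13.0 FPKM in green and 2.22 FPKM in russet skin (log2 fold change 2.52, SE 0.25, adjusted p = 0.000731, limma). Between these GDSL genes, 103955079 had 1.15 FPKM in green and 0.807 FPKM in russet skin, with no call (log2 fold change 0.53, adjusted p = 0.398, limma). On the other side of 103955007, 103955009 had 3.10 FPKM in green and 3.33 FPKM in russet skin, with no call.

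A second GDSL gene stood beside 103934977, the gene under RNA degradation. Gene 103934976, GDSL esterase/lipase APG-like, on NW_008988720.1 from 170122 to 173743, had 68.0, 85.7 and 63.9 FPKM in green B1, B2 and B3, against 1.78, 0.706 and 1.82 FPKM in russet A1, A2 and A3 (log2 fold change 5.66, SE 0.34, adjusted p = 8.12e-05, limma). The gap between the genes is 101 bp and they lie end to end on opposite strands. In green skin 9919 reads fell on the GDSL gene and 339 on 103934977, and whether reads of the first ran into the second was not tested.

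Beside 103928860, the acyl transferase gene, 103928845 had 8.42, 9.56 and 6.66 FPKM in green B1, B2 and B3, against 0.107, 0.0142 and 0.145 FPKM in russet A1, A2 and A3 (log2 fold change 5.52, SE 0.35, adjusted p = 9.69e-05, limma). Gene 103929154 lies inside the span of 108865729 on the other strand and had a mean of 4.61 FPKM in green skin against 1 read in russet skin (log2 fold change 5.37, SE 0.33, adjusted p = 8.21e-05, limma), so reads of this pair may not be told apart. With a pseudocount of 1 these log2 fold changes were 3.07 for 103928845 and 2.44 for 103929154, both still called. Opposite in direction was 103964024 beside 103964022 (3316 bp from start to start), listed under the cutin, suberine and wax pathway and under acyl transferases. It fell to 1.22, 1.11 and 0.704 FPKM in green B1, B2 and B3, against 78.9, 41.6 and 43.8 FPKM in russet A1, A2 and A3 (log2 fold change -5.59, SE 0.30, adjusted p = 5.85e-05, limma). Gene 103964022 itself had 2.27, 5.92 and 3.08 FPKM in green skin and no russet read, so that these neighbours moved in opposite directions.

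**Figure D4:**
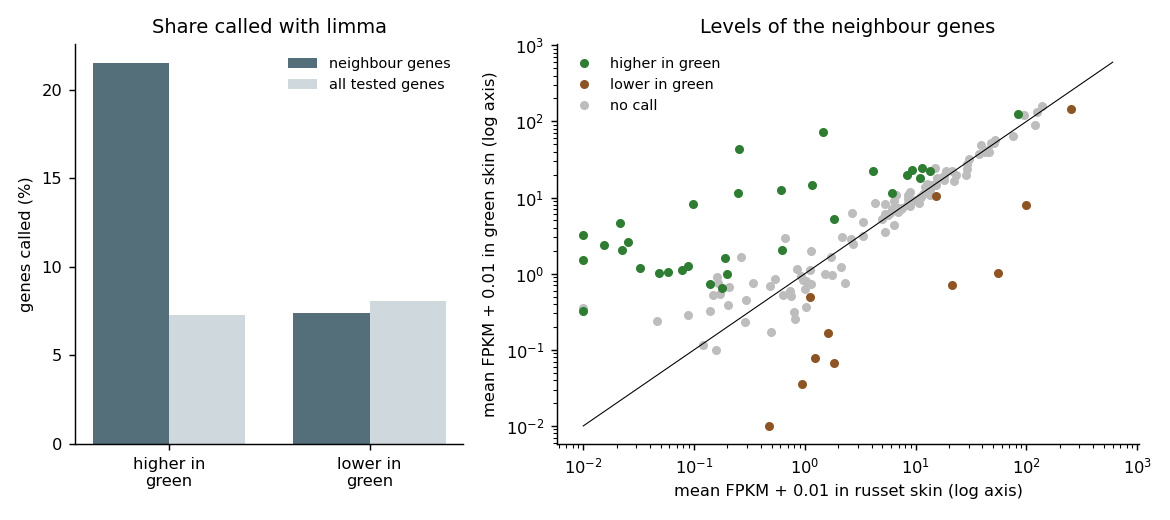
Left, share of genes called higher or lower in green skin (%, limma, adjusted p under 0.05) among the 149 neighbours and among all 30161 tested genes; right, mean FPKM + 0.01 of each neighbour in green against russet skin (log axes), with the line of equal levels. The share called higher is 21.5% among neighbours and 7.29% among all genes, the shares called lower are 7.38% and 8.05%, and most neighbours lie along the line.

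Lists were matched on names, and only 1 of the 94 genes had a name, so the lists could not show whether the set holds cuticle or wax genes. None of the 94 genes was on the list of cuticle and wax genes, which held 46 genes named in the tables, 34 of them GDSL esterases/lipases. Of its 35 tested genes, 15 (42.9%) were called higher and 8 (22.9%) lower in green skin, beside 7.29% and 8.05% of all tested genes, with a median log2 fold change of 0.48 against -0.003 over all tested genes; without library B2, 5 were called lower. The paper describes part of the named genes, lipases among them, as differing between these skins on the same libraries. A high share called is thus partly built into this list. The summed level of the list was 1120 to 1450 FPKM in green and 518 to 848 FPKM in russet libraries. The 94 genes, at 299 to 320 FPKM in sum, were therefore a smaller part of the green transcriptome than this list.

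Of the other lists, only that of transporters held a gene of the set, 103957025, the only gene of the set with a name. Of the 143 tested transporter genes, 15 (10.5%) were called higher and 26 (18.2%) lower in green skin. These and the following counts stand beside 7.29% called higher and 8.05% called lower over all tested genes. Terpenoid genes were called higher and lower in 5 and 17 of 23 cases, transcription factors in 3 and 17 of 55, immune receptors in 2 and 5 of 40, and genes with no function given in 24 and 24 of 277, or 8.66% each. The paper reports terpenoid genes and some transcription factors as differentially expressed between the same skins, so the shares of these lists are partly built in as well. Other cytochrome P450 genes gave 0 higher and 3 lower of 5, phenylpropanoid and lignin genes 0 and 2 of 5, photosynthesis genes 0 and 1 of 4, and sugar transferases 1 and 1 of 6. No gene was called among 7 cell wall and 3 defence genes. Names in the tables are too few to check the skin against epidermis or xylem markers, since 0 genes of these lists were named. The 2 chlorophyll a-b binding protein genes summed to 262 to 376 FPKM in green and 422 to 526 FPKM in russet libraries, with 1 of them called lower in green skin. The single phloem marker had 0.458 to 0.764 FPKM in green and 0.826 to 1.37 FPKM in russet libraries, and 1 tested pollen gene gave no call. Seed storage genes summed to 10.7 to 24.4 FPKM in green and 1.43 to 4.27 FPKM in russet libraries, with 1 of 2 called higher in green skin; their part in the levels of the 94 genes was not tested.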

How the data were processed

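The fruit skin of 6 samples was sequenced, 3 per line. The authors used HISAT2 2.0.4 to align reads to the Chinese white pear genome and Cufflinks 2.1.1 to assemble transcripts, and deposited 1 FPKM per gene and library, with a table of gene positions and lengths. DESeq 1.18.0 is also named in the submitters' processing notes. The sources used here give neither the version of the assembly nor the counting settings. FPKM depends on the assumed gene length, so levels of short models are unsteady. Library names A and B were assigned to lines by the paper's legend. The sample titles number the green samples 2 to 4, and the sources used here do not match them to B1, B2 and B3.

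Reads were recovered as whole multiples from FPKM and gene length (tolerance 0.0001). With the deposited length 74.5% of the 191857 values above 0 came out whole, and other genes needed another length, among them 26 of the 94. For 353 genes no length within 20% of the deposited one gave whole reads. Gene 103935951 of the set is among them, and its 59 reads rest on 456 bp in place of 611 bp.

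The two-sided test of green against russet skin used limma 3.58.1 (R 4.3.3; functions lmFit and eBayes with trend) on log2(FPKM + 0.1). Genes that averaged 0.1 FPKM or more entered it, and Benjamini-Hochberg adjustment covered all of them. Fold changes on this scale understate the change of low genes. On simulated data with 200 changed genes among 30161, the fit recovered 100 of 100 changed 4-fold and 96 of 100 changed 2-fold. It made 4 false calls there. How far these values hold for real genes with few reads, or of differing length and spread, was not tested. Tables were made with Python 3.11.15, numpy 2.4.6 and pandas 2.3.3, and figures with matplotlib 3.10.9.

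The 94 genes, the lists and the tests were chosen with earlier results of these data known. Named genes are the 15 highest of the set, members on a list, adjacent members, genes at the limits, the 5 neighbours with the largest changes, and the most and least steady members; annotated members were added after their values were seen. The lists match words in the 1997 gene names of the paper's supplementary tables, in place of the gene descriptions first planned. Neighbours are the nearest tested genes outside the set within 50 kb. Alternatives were other pseudocounts, filters and scalings, limma voom on recovered reads, each library left out, and the library number as a replicate block. Deviations of same-number libraries correlated at 0.195, 0.211 and 0.323, and only the block run took the numbers to pair the libraries. Neither the labels nor the study's methods name a pairing, and the reported fit has no block.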

Additional observations from a re-analysis of the deposited data

How the results depend on the processing

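The number of genes with reads in green skin only followed its limits: it was 186 for a green mean from 0.1 FPKM up, 56 for one from 1 FPKM up, and 171 with up to 3 russet reads, and it was 91 to 127 with 1 library left out. Without A2, 127 genes met the rule, all 94 among them; without B1, 84 of the 94 were among the 91 genes. With limits added after seeing the data, 92 genes had at least 10 and 87 at least 30 green reads. Neighbours called higher in green skin numbered 24 to 35 over the alternatives, against 32, and 26 to 30 with 1 library left out. Those called lower numbered 6 among genes averaging 1 FPKM or more, 7 within 20 kb, and 8 to 11 with 1 library left out, against 11; the cause was not tested. With the library number as a replicate block, pairing same-number libraries, 35 neighbours were called higher and 12 lower, and over all genes 2906 were called higher and 3132 lower, against 2198 and 2427; the block changed no direction of a named neighbour. Cuticle and wax genes numbered 13 to 15 higher and 5 to 7 lower with 1 library left out, and all genes 1506 to 1748 higher and 1666 to 2026 lower. The 5 named neighbours kept their directions and calls under each alternative run, at 6.80 to 7.47 for 103955005, 5.25 to 5.87 for 103934976, 5.19 to 5.74 for 103928845, 5.13 to 5.56 for 103929154 and -5.76 to -5.30 for 103964024 (log2 fold change with 1 library left out). Their size depended on the pseudocount: with 1 and 0.01 in place of 0.1, the log2 fold change was 5.11 and 7.59 for 103955005, 4.94 and 5.76 for 103934976, 3.07 and 6.74 for 103928845, 2.44 and 8.09 for 103929154, and -4.74 and -5.72 for 103964024. Depth limits the 7 genes with fewer than 30 reads, whose absence from russet skin rests on few reads. The counts of closest paralogs and of promoter motifs planned for these genes were not run, as they need a genome or protein sequences that were not used here.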
